A study of Homo sapiens with 6 samples.

Results

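The SYTL family and its partners, the RAB27 GTPases, were followed in K562 cells after knockdown of PCBP1, an iron chaperone and RNA-binding protein with a preference for runs of C. The 7 genes were SYTL1, SYTL2, SYTL3, SYTL4, SYTL5, RAB27A and RAB27B, out of 62228 annotated genes, and they held 72 of the 251142 annotated transcripts with values. The set was chosen by the measured gene-level difference of SYTL5, whose RNA was much higher after knockdown, so the values of SYTL5 are given as a description with no test. The other 6 genes were taken from family membership and could be tested.

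K562 is a human line from a chronic myeloid leukemia with erythroid and megakaryocytic features. The 3 shCtrl and 3 shPCBP1 libraries of poly-A RNA came from cells infected with pLKO.1 lentivirus that carried a puromycin resistance gene and a short hairpin RNA, against luciferase in shCtrl and against PCBP1 in shPCBP1. Both groups received 8 µg/mL polybrene overnight and were then selected for 4 days with 3 µg/mL puromycin. Each group rested on 1 hairpin, so effects of the hairpin and of lower PCBP1 cannot be told apart. Nothing in the labels states that replicates were separate cultures, and p-values then measure only the spread between these libraries. Libraries held 67066747 to 140522444 estimated counts, and the shPCBP1 libraries were on average the shallower ones. PCBP1 averaged 18.1% of its shCtrl level in shPCBP1. Of the erythroid markers, all 16 were tested, 4 rose and 1 fell, where 17.7% of all genes tested rose and 13.5% fell. The summed TPM of these markers ranged from 34730 to 42450 in shCtrl and from 39930 to 42020 in shPCBP1. Most of that sum came from the globin genes, so it says little about the other markers.

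RAB27A and RAB27B are small GTPases that sit on secretory granules, lysosome-related organelles and multivesicular endosomes. In the GTP-bound state they recruit effectors that tether these organelles to actin or dock them at the plasma membrane. The SYTL proteins, also called synaptotagmin-like proteins or Slps, are one class of these effectors, with a RAB27-binding region at the amino terminus and paired C2 domains for membrane lipids at the carboxyl terminus. The system is best known from melanocytes, cytotoxic lymphocytes, platelets and endocrine cells.

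Levels of the 7 genes covered a wide range in K562. On the TPM scale, which is relative abundance per length and so can be compared between genes, RAB27A was highest, followed by SYTL4, RAB27B and SYTL1 in every library. The ranges of neighbouring genes in that order did not overlap over the 6 libraries. SYTL2, SYTL3 and SYTL5 stood at 0.769 TPM or less in every library, and their ranges overlapped with each other. In all 3 shCtrl libraries SYTL5 was the lowest of these 3 genes, and in all 3 shPCBP1 libraries it was the highest.

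**Figure D1:**
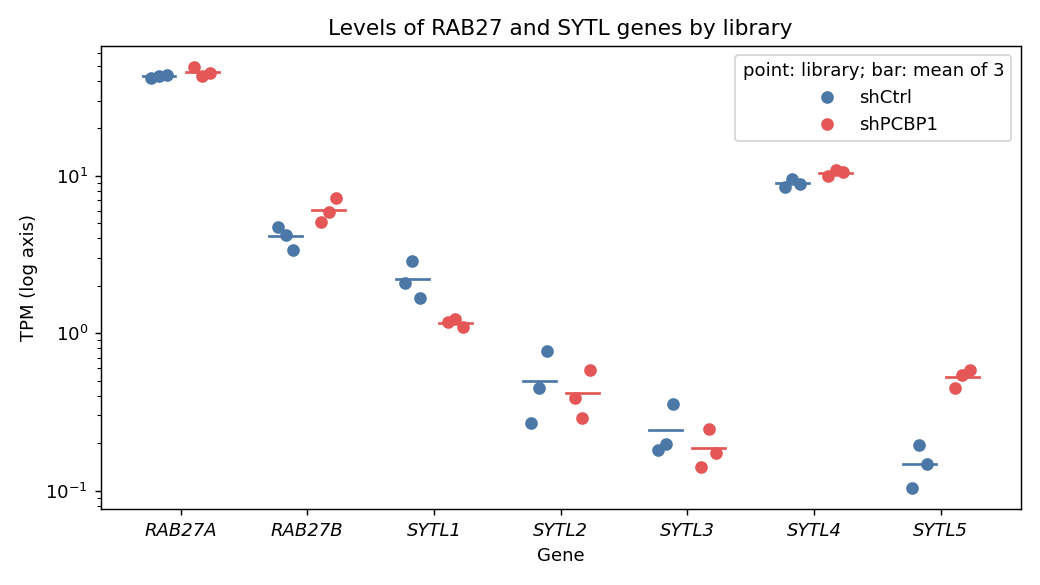
TPM of each gene (log axis) in each library, with points for libraries and bars for group means of 3 libraries. RAB27A lies between 41.9 and 49.0 TPM, while SYTL5 moves from 0.104 to 0.194 TPM in shCtrl to 0.446 to 0.586 TPM in shPCBP1.

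SYTL5 (ENSG00000147041.12, chrX:38006553-38128819, plus strand, GRCh38) encodes a RAB27 effector of the family. Its normalized counts, which are estimated counts divided by the size factor of the library, were 38.8, 70.6 and 55.8 in shCtrl replicates 1, 2 and 3. They were 169.8, 200.6 and 216 in shPCBP1 replicates 1, 2 and 3. The lowest shPCBP1 library stood above the highest shCtrl library. The mean went from 55.1 ± 15.9 to 195 ± 23.5 (SD, n = 3), a fold of 3.58 and a log2 fold change of 1.84 (SE 0.285). These counts rest on 53.0 to 85.0 estimated reads per shCtrl library and 151 to 169 per shPCBP1 library, so the gene was scarce in both groups. Without shCtrl replicate 1 the log2 difference was 1.64, and without shCtrl replicate 2 it was 2.04.

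All SYTL5 abundance was assigned to SYTL5-201, a transcript of 17 exons with a coding sequence of 730 codons that starts at the first base of the gene. SYTL5-202, which starts inside the gene and has 752 codons, was listed at 0 in every library. Start sites were not measured directly, and by this assignment of few reads the difference in SYTL5 concerned 1 start site. The 250 bases before it, from the RefSeq promoter table on GRCh38.p14, are shown with matches to GATAA or its reverse complement TTATC, the letters read by GATA factors, and to CACCC or its reverse complement GGGTG, the letters read by KLF factors, in capitals on either strand.
SYTL5-201 start, chrX:38006303-38006552, plus strand: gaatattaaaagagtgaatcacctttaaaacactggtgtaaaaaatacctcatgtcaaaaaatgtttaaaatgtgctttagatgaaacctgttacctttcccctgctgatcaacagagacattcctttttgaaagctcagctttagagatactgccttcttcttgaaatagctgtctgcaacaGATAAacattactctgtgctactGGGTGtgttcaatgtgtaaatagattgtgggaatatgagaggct
This window held 1 GATAA match and 1 CACCC match, which do not overlap. Over all 35116 promoters of that table, 20.4% held GATAA and 54.7% held CACCC in the same 250 bases, so neither match was rare. The window was AT-rich, with 36.0% G or C against a median of 58% over all promoters, and had 0 CG dinucleotides against a median of 11.

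SYTL4 (ENSG00000102362.16, chrX:100671783-100732123, minus strand), also called granuphilin, docks dense-core granules at the plasma membrane and was the most abundant SYTL gene. It gave 2184, 2146 and 2299 normalized counts in the shCtrl libraries and 2400.2, 2617 and 2600.4 after knockdown. Every shPCBP1 library stood above every shCtrl library. SYTL4 rose by 0.20 on the log2 scale (SE 0.0678, DESeq2 adjusted p 0.0138), a fold of 1.15 with a 95% interval of 1.05 to 1.26. The call was close to the threshold. It was lost without shCtrl replicate 1 (adjusted p 0.0573), shCtrl replicate 2 (0.0516), shPCBP1 replicate 2 (0.0890) or shPCBP1 replicate 3 (0.0567), all from DESeq2, while the log2 difference stayed between 0.18 and 0.24.

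SYTL1 (ENSG00000142765.18, chr1:27342020-27353937, plus strand), known as JFC1 and linked to granule release in neutrophils, moved the other way. It gave 359.8, 458 and 290.2 normalized counts in the shCtrl libraries and 216, 216 and 195 after knockdown. The shPCBP1 libraries lay close together and all below the lowest shCtrl library. SYTL1 fell by 0.81 on the log2 scale (SE 0.198, DESeq2 adjusted p 0.000299), from a mean of 369 ± 84.1 to 209 ± 12 (SD, n = 3). The fall passed in all 6 fits that left out 1 library, with log2 differences between -0.96 and -0.63. A limma test of TPM values gave -0.83 with an adjusted p of 0.0907, which did not pass.

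SYTL2 (ENSG00000137501.18, chr11:85694224-85811159, minus strand), an effector in melanosome and mucus granule transport, gave 38.1, 68.5 and 86.0 normalized counts in the shCtrl libraries and 83.2, 48.7 and 72.0 after knockdown. The groups overlapped, and the log2 difference of 0.08 (SE 0.402, DESeq2 adjusted p 0.912) had a 95% interval from -0.71 to 0.87. SYTL3 (ENSG00000164674.17, chr6:158650014-158764876, plus strand), another effector of the family, gave 40.3, 42.4 and 70.3 normalized counts in the shCtrl libraries and 28.1, 48.7 and 34.6 after knockdown. These groups overlapped as well, and the log2 difference was -0.46 (SE 0.457, DESeq2 adjusted p 0.491). With so few counts a change of the size seen in SYTL1 lies inside the interval of SYTL3, which ran from -1.36 to 0.43.

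RAB27A (ENSG00000069974.17, chr15:55202966-55319113, minus strand), the GTPase mutated in Griscelli syndrome, was measured at 5622, 5857 and 5629 normalized counts in the shCtrl libraries and at 6128, 5958 and 6077 after knockdown. The groups did not overlap, but the log2 difference of 0.09 (SE 0.0460, DESeq2 adjusted p 0.144) did not pass, and its 95% interval ran from -0.00325 to 0.18. RAB27B (ENSG00000041353.10, chr18:54717860-54895516, plus strand), its close relative on platelet and endocrine granules, was measured at 1845, 1974 and 1559 normalized counts in the shCtrl libraries and at 1810, 2062 and 2119 after knockdown. Here the groups overlapped, and the log2 difference was 0.16 (SE 0.0940, DESeq2 adjusted p 0.210). On the TPM scale RAB27B stood at 4.75, 4.23 and 3.36 in shCtrl and 5.08, 5.85 and 7.18 in shPCBP1. The TPM groups did not overlap, and a DESeq2 fit with transcript length offsets gave a log2 difference of 0.57 (adjusted p 0.000600). It did not pass in limma on log2(TPM + 0.1) (0.54, adjusted p 0.136) or on log2(TPM + 1) (0.46, adjusted p 0.159). RAB27B-201, with 1492 to 2496 estimated reads per library, had a log2 difference of 0.13 (DESeq2 adjusted p 0.635) and overlapping TPM groups. The short transcripts RAB27B-203 and RAB27B-204 rested on at most 21.7 and 13 reads per library.

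Of the 6 genes that could be tested, 1 rose, 1 fell and 4 did not pass at an adjusted p under 0.05. Among all 17092 genes tested, 31.2% passed, 17.7% higher and 13.5% lower, so a share of 2 in 6 was near the background. Normalized counts of the groups did not overlap for 3 of the 6 (SYTL1, SYTL4 and RAB27A), where 44.2% of all genes did not overlap. The fold rule of the study, which also asks for an absolute log2 fold change over 1, called 1.37% of all genes (0.386% higher and 0.983% lower) and 0 of these 6. In DESeq2, SYTL1 and SYTL4 were also the only ones of the 6 at an unadjusted p under 0.05.

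**Figure D2:**
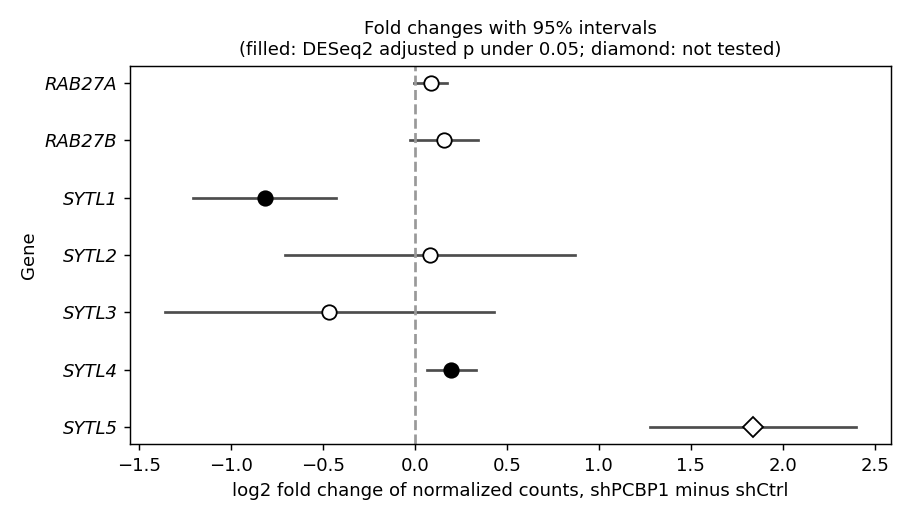
log2 fold change of normalized counts for each gene with its 95% interval (DESeq2). Filled circles mark SYTL1 at -0.81 and SYTL4 at 0.20, which passed, open circles did not pass, and the diamond is SYTL5 at 1.84, shown with no test.

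The 5 SYTL genes together had 11.1, 13.3 and 11.8 TPM in shCtrl and 12.1, 13.2 and 13.0 in shPCBP1, with overlapping groups. Their protein-coding transcripts alone summed to 7.50, 8.13 and 8.89 TPM in shCtrl and to 8.91, 10.04 and 10.12 in shPCBP1, with no overlap. Of the TPM of the 5 SYTL genes over all their transcripts, SYTL4 held 74.5% ± 2.13 in shCtrl and 82.0% ± 0.662 in shPCBP1 (SD, n = 3). SYTL1 held 18.1% ± 3.70 and then 9.14% ± 0.649. SYTL5 held 1.22% ± 0.268 and then 4.10% ± 0.412, so even after its difference it remained a small part of the family. For the GTPases, RAB27A and RAB27B together had 46.7, 47.2 and 47.2 TPM in shCtrl and 54.1, 48.6 and 52.2 in shPCBP1, with no overlap. RAB27A alone overlapped on this scale, and part of the RAB27B TPM came from short transcripts with few reads. The ratio of RAB27A to RAB27B was 10.7 ± 2.16 in shCtrl and 7.74 ± 1.73 in shPCBP1, with overlapping groups.

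Transcripts were examined because a gene sum can hide a change of form. Of the 72 transcripts, 26 were listed at 0 in every library and 9 averaged at least 1 TPM. Among the 38 tested transcripts of genes other than SYTL5, 35 received an adjusted p, and 0 passed in DESeq2, with 6 at an unadjusted p under 0.05. In edgeR 0 passed, with 5 at an unadjusted p under 0.05. Over the series, 9.27% of 105629 transcripts passed in DESeq2. The share of a transcript within its gene passed for 1 of 38 transcripts (limma diffSplice), beside 2.35% of 111372 transcripts in the series.

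That transcript was SYTL4-202, which starts inside the gene, downstream of the main start. SYTL4-202 had 2.58, 0.752 and 1.52 TPM in shCtrl and 0, 0.173 and 0.353 TPM in shPCBP1. All shPCBP1 libraries were below all shCtrl libraries, although the shCtrl values themselves were widely spread. Its share of SYTL4 TPM was 18.5% ± 11.3 in shCtrl and 1.65% ± 1.67 in shPCBP1 (SD, n = 3), and the limma diffSplice test on voom-weighted counts gave a log2 difference of -5.73 relative to the other transcripts (adjusted p 0.0343). This call was lost without shCtrl replicate 1 (adjusted p 0.0679), shCtrl replicate 3 (0.0507), shPCBP1 replicate 2 (0.221) or shPCBP1 replicate 3 (0.226), with the same direction in each. Over the 6 fits that left out 1 library the log2 difference ran from -6.98 without shPCBP1 replicate 3 to -3.24 without shPCBP1 replicate 1. The count of SYTL4-202 alone did not pass (log2 difference -3.21, DESeq2 adjusted p 0.266).

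The 4 transcripts from the upstream start of SYTL4 summed to 4.31, 6.45 and 6.40 TPM in shCtrl and 8.18, 8.94 and 8.75 TPM in shPCBP1. These groups did not overlap either, and their share of SYTL4 was 63.5% ± 11.3 in shCtrl and 82.5% ± 0.356 in shPCBP1. SYTL4-204 and SYTL4-201, the leading transcripts of that start, had log2 differences of 0.48 (DESeq2 adjusted p 0.0757) and 0.78 (adjusted p 0.0589), and neither passed. SYTL4-205, a form of 2 exons with no coding sequence, held 18.0% ± 7.21 of SYTL4 in shCtrl and 15.8% ± 1.98 in shPCBP1, with overlapping groups. SYTL4-201, SYTL4-202 and SYTL4-204 each encode 671 codons, while SYTL4-203, a minor transcript of the upstream start, has 349. The 250 bases before each start are shown because the share of the starts differed between groups, with the same letters in capitals.
SYTL4 upstream start, chrX:100732122-100732371, minus strand: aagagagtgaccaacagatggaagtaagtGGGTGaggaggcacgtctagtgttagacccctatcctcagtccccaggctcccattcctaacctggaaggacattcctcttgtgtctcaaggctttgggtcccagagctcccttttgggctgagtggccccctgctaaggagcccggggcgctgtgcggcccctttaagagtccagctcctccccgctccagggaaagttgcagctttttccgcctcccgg
SYTL4-202 start, chrX:100731535-100731784, minus strand: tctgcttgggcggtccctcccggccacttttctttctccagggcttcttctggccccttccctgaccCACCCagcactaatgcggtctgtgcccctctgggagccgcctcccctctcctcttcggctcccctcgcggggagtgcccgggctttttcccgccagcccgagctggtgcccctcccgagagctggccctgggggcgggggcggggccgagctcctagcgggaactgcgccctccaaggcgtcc
Each window held 1 CACCC match and 0 GATAA matches. The upstream window had 58.8% G or C and 7 CG dinucleotides, and the window of SYTL4-202 had 70.8% and 17. Both were richer in G and C than the SYTL5 window.

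SYTL1 RNA in K562 was mostly annotated as retaining introns. SYTL1-203, a transcript of 2 exons from the last part of the gene with no coding sequence, had 1.37, 1.70 and 1.17 TPM in shCtrl and 0.857, 1.05 and 0.877 TPM in shPCBP1. Its groups did not overlap, and its log2 difference of -0.57 did not pass (DESeq2 adjusted p 0.0685). SYTL1-206, also of the retained-intron class, had a log2 difference of -0.87 (DESeq2 adjusted p 0.379). The protein-coding transcripts of SYTL1 summed to 0.296, 0.419 and 0.267 TPM in shCtrl and to 0.0662, 0.0535 and 0 TPM in shPCBP1. Those values rest on 57.9 to 65.6 reads per shCtrl library and at most 10.5 per shPCBP1 library. The coding share of SYTL1 was 15.0% ± 0.892 in shCtrl and 3.34% ± 2.97 in shPCBP1, with no overlap, and a DESeq2 fit restricted to protein-coding transcripts gave a log2 difference of -2.79 (adjusted p 0.00129). SYTL1-208, the most abundant coding form, with 562 codons, had 0, 0.342 and 0.215 TPM in shCtrl and 0.0662, 0.0535 and 0 TPM in shPCBP1, so single coding transcripts could not be separated at this depth.

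RAB27A was carried by RAB27A-212 and RAB27A-201, which encode the same 221 codons from different starts. RAB27A-212 held 53.7% ± 4.80 of RAB27A TPM in shCtrl and 52.0% ± 6.15 in shPCBP1, and RAB27A-201 held 34.5% ± 3.18 and 34.1% ± 2.73. RAB27A-214, the next in abundance, had 1.20, 0.837 and 1.04 TPM in shCtrl and 1.1, 2.50 and 2.32 TPM in shPCBP1, with a log2 difference of 0.91 that did not pass (DESeq2 adjusted p 0.103). For RAB27B, the full-length RAB27B-201 of 7003 bases and 218 codons held 83.9% ± 9.54 of TPM in shCtrl and 64.8% ± 6.52 in shPCBP1. These share groups did not overlap, but the share test did not pass (limma diffSplice adjusted p 0.241). The difference lay in short transcripts, which had at most 21.7 estimated reads in any library. RAB27B-204, of 423 bases, had 0.118, 0 and 0.365 TPM in shCtrl and 0.630, 1.22 and 0.688 TPM in shPCBP1 (DESeq2 adjusted p 0.194), and RAB27B-203, of 597 bases, was listed at 0 in every shCtrl library and in 1 of 3 shPCBP1 libraries. RAB27B-202, of 432 bases, had 1.16, 0.370 and 0.0572 TPM in shCtrl and 0.393, 0.606 and 1.25 TPM in shPCBP1, with overlapping groups.

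SYTL2 and SYTL3 stayed too scarce for a transcript-level statement. SYTL2-206, with a retained intron, held 61.0% ± 10.4 of SYTL2 TPM in shCtrl and 68.6% ± 11.9 in shPCBP1. SYTL2-212 averaged 0.0332 TPM and SYTL2-211 averaged 0.0291 TPM, and the second was above 0 in 1 library only. SYTL3 was assigned to 3 coding transcripts from 1 start region. SYTL3-201 held 21.1% ± 36.5 of SYTL3 TPM in shCtrl and 78.1% ± 22.9 in shPCBP1, SYTL3-204 held 66.7% ± 57.7 and 6.63% ± 11.5, and SYTL3-202 held 12.2% ± 21.2 and 15.2% ± 26.4.

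**Figure D3:**
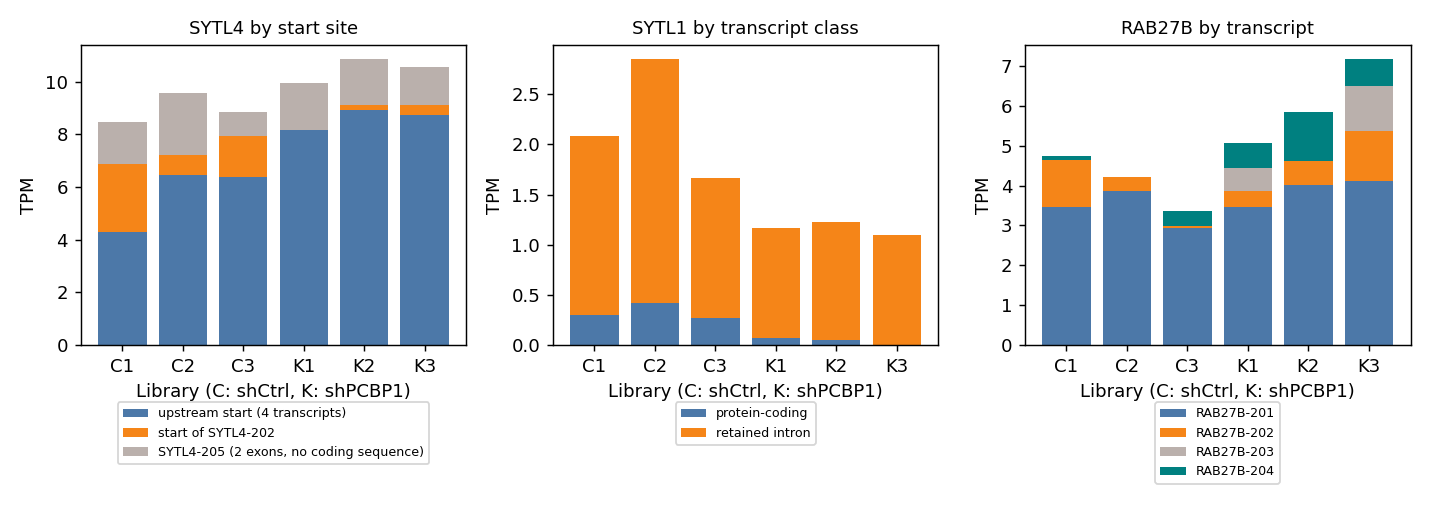
Stacked TPM per library (C for shCtrl, K for shPCBP1) of SYTL4 by start site, SYTL1 by transcript class and RAB27B by transcript. The SYTL4-202 start goes from 0.752 to 2.58 TPM in shCtrl to at most 0.353 TPM in shPCBP1, the coding part of SYTL1 is at most 0.0662 TPM in shPCBP1, and RAB27B-201 lies between 2.935 and 4.11 TPM over all 6 libraries.

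Genes next to SYTL5 were compared to see whether its difference was shared. Of the genes within 500 kb of SYTL5, 6 were tested, 1 rose and 5 did not pass, where 17.7% of all genes tested rose. The gene that rose was SRPX, which encodes a sushi-repeat protein and ends 20.5 kb from the end of SYTL5 on the opposite strand. SRPX gave 22.0, 30.4 and 33.5 normalized counts in the shCtrl libraries and 65.2, 57.0 and 89.9 after knockdown. The groups did not overlap, and SRPX rose by 1.30 on the log2 scale (SE 0.419, DESeq2 adjusted p 0.00848). Its counts were below those of SYTL5 in every library. In the fits that left out 1 library, DESeq2 gave SRPX an adjusted p only without shCtrl replicate 3 (0.0127), and the log2 difference stayed between 1.09 and 1.44. The genes upstream of SYTL5 gave log2 differences of 0.09 for LANCL3, -0.00160 for XK, -0.34 for CYBB and -0.07 for DYNLT3, and RPGR, beyond SRPX, gave 0.16. TSPAN7, the last one in the window, had a mean of 12.2 normalized counts, too few for an adjusted p.

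SYTL4 has a related neighbour in the same arrangement. SRPX2, a paralog of SRPX, lies tail to tail with SYTL4 on the opposite strand, and the exons of the genes share 4006 bases. SRPX2 and the next gene, TSPAN6, are named here after their values were seen. SRPX2 gave 40.3, 41.3 and 76.2 normalized counts in the shCtrl libraries and 106.8, 121 and 94.1 after knockdown, and rose by 1.02 on the log2 scale (SE 0.354, DESeq2 adjusted p 0.0161). This call was lost without shCtrl replicate 1 (adjusted p 0.0879), shCtrl replicate 2 (0.0723), shPCBP1 replicate 1 (0.0596) or shPCBP1 replicate 2 (0.105), all from DESeq2, with log2 differences between 0.85 and 1.40 over the 6 fits. TSPAN6, a tetraspanin gene, had 33.7, 23.9 and 6.57 in shCtrl and 85.4, 52.2 and 73.3 in shPCBP1, and rose by 1.73 (SE 0.531, DESeq2 adjusted p 0.00559). In the fits that left out 1 library, DESeq2 gave TSPAN6 an adjusted p only without shCtrl replicate 3 (0.0288), and the log2 difference stayed between 1.28 and 2.26. In both genes the normalized counts of the groups did not overlap, and both stood at low counts. On the TPM scale the SRPX2 groups overlapped, with 0.303 in shCtrl replicate 1 and 0.297 in shPCBP1 replicate 1. The strandedness of the libraries was not given in the sources used here, so reads in the shared bases of SYTL4 and SRPX2 may have been divided between them by the quantification, and their part in the result for SYTL4 was not tested. In all, 3 of 6 tested genes within 500 kb of SYTL4 rose, the third being CSTF2 with a log2 difference of 0.26, and 3 did not pass, where 17.7% of all genes tested rose.

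**Figure D4:**
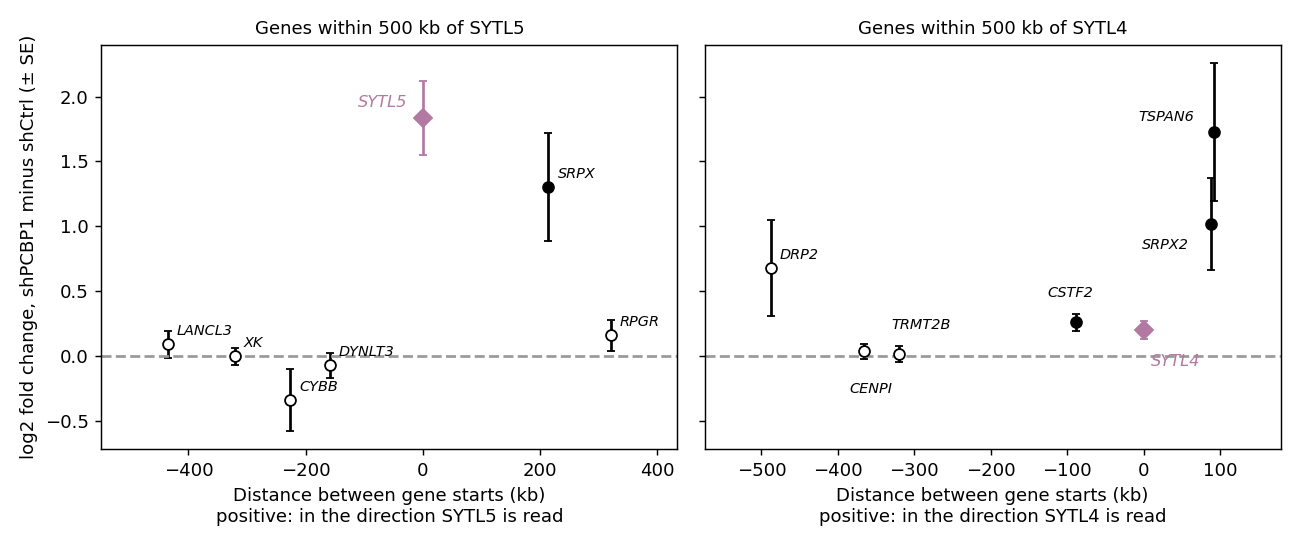
log2 fold change (± SE) of tested genes within 500 kb of SYTL5 and SYTL4 against the distance between gene starts in kb. Filled circles passed (DESeq2) and diamonds are SYTL5 and SYTL4 themselves. SRPX at 1.30, SRPX2 at 1.02 and TSPAN6 at 1.73 stand above the other neighbours.

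Around the other genes, the tested neighbours within 500 kb included 6 that rose and 1 that fell of 21 for SYTL1, 2 and 0 of 10 for SYTL2, 3 and 1 of 11 for SYTL3, 0 and 0 of 7 for RAB27A, and 1 and 0 of 5 for RAB27B. Among all genes tested, 17.7% rose and 13.5% fell. The SYTL1 neighbour that fell was MAP3K6, 1.25 kb away, with a log2 difference of -0.39 (DESeq2 adjusted p 0.00135). Of the 6 that rose, TMEM222 lay nearest, 5.62 kb away, with a log2 difference of 0.48 (DESeq2 adjusted p 7.25e-07). Both are named after their values were seen. Coding genes that overlap one of the 7 on the same strand were summed with it as an alternative. ENSG00000250349, a coding gene that spans SYTL5 with no shared exon bases, and PIGBOS1, which shares 183 bases with RAB27A, left the log2 differences at 1.81 for SYTL5 and 0.09 for RAB27A. The noncoding same-strand genes ENSG00000276533 in RAB27A and RPSAP57 and ENSG00000267311 in RAB27B share 0 exon bases with them and were not added.

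Across the 6 libraries, the pattern of SYTL5 was most like those of HIVEP1 (Pearson r 0.998), ZBTB38 (0.997), VEPH1 (0.997), MORN4 (0.996) and OSBP (0.996), among 11618 coding genes that averaged 100 normalized counts or more. These values are a description, over 6 libraries that share 1 group contrast. Their log2 differences, between 0.19 and 0.35, were far smaller than that of SYTL5.

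The wider RAB27 pathway was read from 8 lists of effectors, regulators and exocytosis genes. Of 79 genes tested, 15 rose, 14 fell and 50 did not pass, with a median log2 difference of -0.02 beside 0.00168 over all genes tested. The 17.7% higher and 13.5% lower of the background apply here too, and the counts lay near them.

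Among the other RAB27 effectors, 0 of 3 rose and 1 fell. UNC13D, the Munc13 protein that primes RAB27-bearing granules in lymphocytes and platelets, fell from 26350 ± 723 to 20120 ± 155 normalized counts (log2 difference -0.39, SE 0.0348, DESeq2 adjusted p 7.99e-27). It stood at 149.9 TPM on average in shCtrl, above every SYTL gene. EXPH5, an exosome and granule effector, and RPH3AL did not pass. Of the regulators and prenylation factors, 2 of 10 rose and 1 fell. GDI2, which holds RAB proteins in the cytosol, rose by 0.13 on the log2 scale, and RABGGTA, a subunit of the enzyme that attaches the lipid anchor, fell by 0.25, a call lost without shPCBP1 replicate 3 (DESeq2 adjusted p 0.0638). MADD, the exchange factor that loads RAB27 with GTP, had a log2 difference of 0.00128 (DESeq2 adjusted p 0.988).

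Of the other secretory RABs, 3 of 11 rose and 4 fell. RAB26 fell by 1.12 (SE 0.194, DESeq2 adjusted p 1.51e-07) and RAB3D, a granule RAB, fell by 1.07 (SE 0.192, DESeq2 adjusted p 3.60e-07), while RAB35 rose by 0.27. Of the synaptotagmins, the calcium sensors that resemble the SYTL proteins in their C2 domains, 1 of 8 rose and 0 fell. SYT10 rose by 0.95 (SE 0.163, DESeq2 adjusted p 9.30e-08), from 233 ± 12.7 to 453 ± 57.5 normalized counts, and SYT4, SYT8 and SYT9 were listed at 0 in every library. Of the SNAREs and their SM partners, 4 of 21 rose and 6 fell. STXBP2, the Munc18 protein that binds syntaxins in granule release, fell by 0.43 (SE 0.0410, DESeq2 adjusted p 5.80e-24), and STX4, a plasma membrane syntaxin, fell by 0.48. SNAP29, a soluble partner of membrane SNAREs, rose by 0.23.

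In the exocyst, the tethering complex, 2 of 9 subunits rose, EXOC5 by 0.17 and EXOC8 by 0.20, and 0 fell. EXOC8 lost its call without shCtrl replicate 2 (DESeq2 adjusted p 0.0515), shPCBP1 replicate 1 (0.0578) or shPCBP1 replicate 2 (0.0643). Of 13 exosome biogenesis genes, 3 rose and 1 fell. HGS, a component of the ESCRT machinery, rose by 0.22 and VPS4A, its ATPase, by 0.19, and SDCBP, the adaptor syntenin, fell by 0.16. Of 4 actin motors, MYO6 fell by 0.44 and 0 rose.

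**Figure D5:**
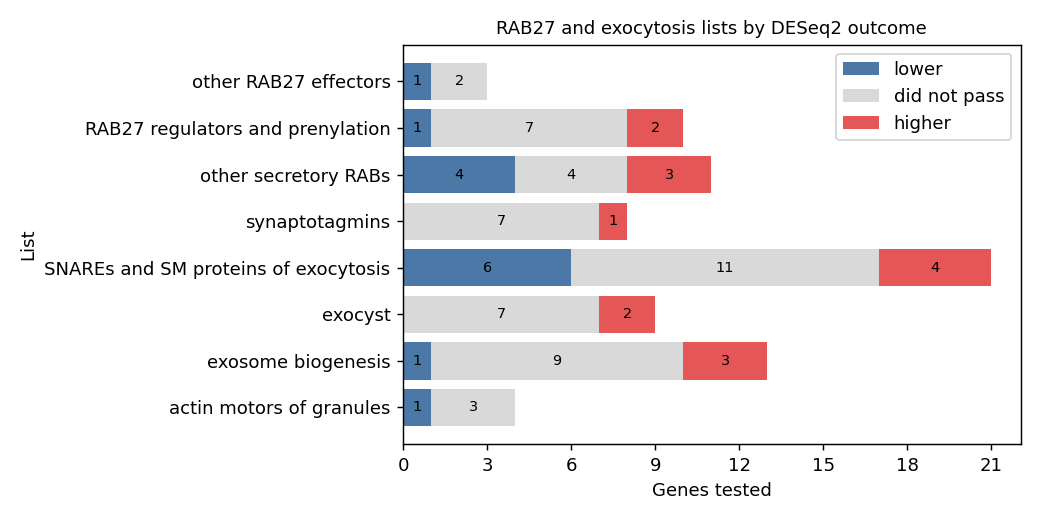
Number of tested genes in each of 8 pathway lists that were higher, lower or did not pass in shPCBP1 (DESeq2 adjusted p under 0.05). The SNARE list is the longest, with 4 higher and 6 lower of 21, and 50 of all 79 genes did not pass.

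Markers of the cell types in which RAB27 effectors are best known were mostly at low levels. The counts below stand beside 17.7% higher and 13.5% lower over all genes tested. Of the megakaryocyte and platelet markers, 3 of 6 tested rose and 1 fell, their summed TPM ranged from 151 to 164 in shCtrl and from 162 to 179 in shPCBP1, and GP9, SELP and P2RY12 were listed at 0 in every library. Most of that summed TPM was GP1BB, at 134.5 on average in shCtrl and 154.7 in shPCBP1. ITGA2B, the integrin of platelets, fell by 1.91 (SE 0.274), GP1BB rose by 0.36 and THBS1 by 1.11. Of the melanocyte markers, 1 of 2 tested rose, MITF by 0.26. Of the lymphoid and myeloid markers, 0 of 7 rose and 3 fell, where SPI1 fell by 0.72, PRF1 fell by 0.80 and CD33 fell by 0.39. Of the epithelial and fibroblast markers, 0 of 6 rose and 3 fell, COL1A2, COL1A1 and EPCAM. COL1A1 passed in 2 and EPCAM in 1 of the 6 fits that left out 1 library, with DESeq2 adjusted p up to 0.178 and 0.211 and log2 differences of -0.19 and -0.11 at the smallest. COL1A1 passed without shCtrl replicate 1 or shPCBP1 replicate 3, and EPCAM without shPCBP1 replicate 1. Among the erythroid markers TFRC rose by 0.35, TAL1 rose by 0.19 and EPOR fell by 0.26. The part of these shifts in the results for the SYTL genes was not tested.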

How the data were processed

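Poly-A RNA of 3 shCtrl and 3 shPCBP1 libraries of K562 cells was sequenced as read pairs, and groups and replicate numbers came from the sample labels. The authors quantified transcripts with Salmon 1.10.2. The deposited estimated counts are Salmon's raw read estimates per transcript, with fractions, and the deposited TPM values are those estimates scaled for effective length and library size. The annotation release and the strand setting of the quantification are not given in the sources used here. Of 252045 transcripts, 251142 matched GENCODE release 44 on GRCh38, which gave names, classes and positions. The rest held 0.328% to 0.339% of counts and were left out.

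Estimated counts were added up within each gene and rounded, and genes whose total reached 10 were tested with DESeq2 1.42.0 (Wald test, two-sided, group as the only term, Benjamini-Hochberg adjustment over all genes, threshold 0.05, fold changes not shrunken). Missing adjusted p-values were kept missing. The same test was run per transcript, and transcript shares were tested with limma 3.58.1 (voom and diffSplice). On simulated data the transcript Wald test and the share test made more false calls than their threshold allows. There edgeR 4.0.16 did not, so transcript calls are leads only. Pairs of libraries within a group had chi-square values of 6.20 to 15.1 per degree of freedom, above sampling noise. This does not show that the libraries came from separate cultures. Each library was counted as 1 sample.

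The genes and lists were chosen with earlier results of these data known. Named were all 7 genes, of each the 3 most abundant transcripts and any transcript that passed, of each list up to 3 genes with the lowest p among those that passed, MADD and UNC13D, same-strand overlapping genes, tested genes within 500 kb of SYTL5, and the 5 coding genes most correlated with SYTL5. A list gene that met this rule is not reported here. Promoter bases came from the RefSeq table on GRCh38.p14, which held windows for 6 of the 7 genes. Versions were R 4.3.3, Python 3.11.15 and matplotlib 3.10.9.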

Additional observations from a re-analysis of the deposited data

How the results depend on the processing

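SYTL1 kept its call under edgeR, TMM factors, other count filters, length offsets and a fit on protein-coding transcripts, and lost it with limma on log2(TPM + 0.1) (-0.83, adjusted p 0.0907) and log2(TPM + 1) (-0.55, adjusted p 0.118). SYTL4 passed with edgeR (adjusted p 0.0414) and lost its call with protein-coding transcripts (0.19, DESeq2 adjusted p 0.0829) and with limma on TPM (0.22 and 0.20, adjusted p 0.143 and 0.153). The labels do not say whether replicate numbers pair the samples, and the main fit used no block. Same-numbered libraries had deviation correlations of 0.0937, -0.0203 and -0.106. Libraries with different numbers were not compared, so these values do not settle whether samples were paired. With the replicate block, SYTL4 gave 0.20 (DESeq2 adjusted p 0.0507), 2 transcripts passed (SYTL4-204 and SYTL4-201) and 0 shares passed in limma diffSplice, with 4 at an unadjusted p under 0.05, as 0 passed with protein-coding transcripts alone, with 1 at an unadjusted p under 0.05. RAB27B passed with length offsets (0.57). The cause of these shifts was not tested.

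SYTL2 changed sign with length offsets (-0.24), with limma on TPM (-0.155 and -0.0696) and without shCtrl replicate 1 or shPCBP1 replicate 1, and did not pass in any fit. SYTL5 gave 1.34 and 0.41 with limma at pseudocounts of 0.1 and 1, where the larger pseudocount exceeds its TPM. SYTL2-206 had 0.00345 with the block, and MADD had -0.0127 with edgeR, -0.0129 with TMM factors, -0.0320 with length offsets and -0.0330 with protein-coding transcripts, all without passing.

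Leaving out each library in turn gave log2 differences of -0.96 to -0.63 for SYTL1, -0.19 to 0.36 for SYTL2, -0.71 to -0.15 for SYTL3, 0.18 to 0.24 for SYTL4, 1.64 to 2.04 for SYTL5, 0.08 to 0.11 for RAB27A and 0.07 to 0.23 for RAB27B. Signs also varied, with no pass, for SYTL2-206 (-0.37 to 0.25), SYTL2-212 (-1.76 to 1.83), SYTL3-202 (-5.42 to 5.07), SYTL4-205 (-0.23 to 0.39), RAB27A-212 (-0.11 to 0.16) and MADD (-0.0242 to 0.0242). Between 0 and 3 transcripts and between 0 and 2 shares passed. The fold rule of the study, as applied here, called 122 to 248 genes, the lowest without shCtrl replicate 2, beside 234 in the main fit. The pathway lists had 21 to 29 passing genes. For SYTL2, SYTL3, SYTL5 and the coding part of SYTL1, under 100 normalized counts in at least 1 group limit what can be detected.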
